A study of Homo sapiens with 12 samples.

Results

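The stress-inducible cytosolic chaperone genes described here are 9 genes chosen by name out of 20033 protein-coding genes: HSPA1A, HSPA1B, HSPA8, HSP90AA1, HSP90AB1, HSPH1, HSPB1, BAG3 and DNAJB1. H3K27ac, the acetylation of histone H3 at lysine 27 that marks active promoters and enhancers, was read at 5 hg19 loci that hold 6 of the members, each taken as the gene span plus 10 kb on both sides. HSP90AA1, HSPH1 and DNAJB1 have no locus among these 5, and their H3K27ac ChIP-seq values are not given. HSF1 binding was read on hg38 at every annotated transcript start of all 9 members. The study asked how the transcription factor HSF1 shapes gene regulation in liver cancer, using Huh7, an established hepatocellular carcinoma cell line. H3K27ac ChIP-seq was made 48 h after transfection with Lipofectamine RNAiMAX of either a negative control siRNA (siNC, labelled WT) or an siRNA against HSF1 (siHSF1, labelled HSF1 knockdown). CUT&Tag for HSF1 and for H3K27ac was made in untreated cells labelled WT. Each of these 4 conditions is 1 library of this single line, so no test over replicates was possible and no p-value is given. No heat shock is named in the labels, and which HSF1 siRNA was used for ChIP-seq is not named either.

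The HSP70 and HSP90 chaperones among them bind unfolded or partly folded proteins and release them in cycles of ATP hydrolysis. Co-chaperones deliver clients and set the pace of the cycle. When unfolded proteins accumulate, HSF1 trimerises and binds heat shock elements, inverted repeats of the base triplet GAA, in the promoters of these genes. Many tumours keep high levels of several of them without a heat stress, and HSPA8 and HSP90AB1 are expressed in nearly all cells.

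HSF1 CUT&Tag in untreated cells gave a peak at 4 of the 9 chaperone genes, and 2 of these peaks held a heat shock element at the summit. The 4 genes were HSPA8 (the constitutive HSP70 family member), HSP90AA1 (the inducible HSP90 isoform), HSPH1 (a large HSP70 relative that exchanges its nucleotide) and DNAJB1 (a J-domain protein that stimulates HSP70). HSPA8 and HSPH1 held the element. No peak lay at HSPA1A and HSPA1B (the classical inducible HSP70 pair), HSP90AB1 (the constitutive HSP90 isoform), HSPB1 (a small heat shock protein) or BAG3 (a nucleotide exchange factor that links HSP70 to autophagy). A gene was counted when a peak summit lay within 1 kb of any of its transcript starts, which held for 5098 of 20033 protein-coding genes, 25.4%. An element was counted when 3 alternating triplets, GAA, TTC and GAA or the reverse order TTC, GAA and TTC, each 2 bases apart, matched on either strand with at most 1 mismatch in the 9 fixed bases, wholly within 100 bp of the summit. Of 4424 HSF1 peaks at coding starts, 95 held such an element, 2.15%. With no mismatch allowed, 12 of the 4424 peaks did, 0.271%, and the HSPA8 and HSPH1 peaks were among them.

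The sequences under these 2 summits are shown because they are the only member peaks with an element at the summit, read from hg38 on the gene's strand, with the elements in capitals. The HSPA8 stretch is chr11:123062353-123062478, minus strand, and ends at the element nearest to the summit. The HSPH1 stretch is chr13:31161928-31162094, minus strand, and holds 4 overlapping matches in 2 clusters, 1 of them without a mismatch. Both stretches keep to the window of 100 bp around the summit and leave out annotated untranslated regions. The other exact HSPA8 element, nearer to the transcript start, is shown as a 30-base site at chr11:123062171-123062200.
HSPA8 summit: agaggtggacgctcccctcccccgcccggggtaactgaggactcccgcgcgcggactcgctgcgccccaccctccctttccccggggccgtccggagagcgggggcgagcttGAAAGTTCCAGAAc
HSPH1 summit: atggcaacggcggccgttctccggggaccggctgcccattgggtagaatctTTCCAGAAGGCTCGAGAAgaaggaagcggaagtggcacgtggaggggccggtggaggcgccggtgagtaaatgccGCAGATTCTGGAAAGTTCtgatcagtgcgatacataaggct
HSPA8 proximal site: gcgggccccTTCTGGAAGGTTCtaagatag

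The HSPA8 peak was the highest of the 5 HSF1 peaks at members. It spanned chr11:123062094-123062727 with 37 tags over the summit (exact 95% Poisson interval 26.1 to 51.0, counting error only) and a fold enrichment of 11.7, which was above 97.1% of the 7147 HSF1 peaks on the main chromosomes. Fold enrichment is the pileup of tags plus 1 over the local background plus 1. The summit lay at -242 bp from the MANE start, the reference start at position 123062136, and 7 annotated HSPA8 starts lay inside the peak. A gene without a symbol also starts within 1 kb of the summit. Its 2 exact elements ran from -230 to -218 bp and from -55 to -43 bp, with centres 18 and 193 bp from the summit.

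The HSPH1 peak spanned chr13:31161823-31162484 with 16 tags (9.15 to 26.0) and a fold enrichment of 7.94, above 71.2% of the list. Its summit at -117 bp from the MANE start lay between the element clusters, which ran from -139 to -122 bp and from -64 to -47 bp. A CCAAT box, the motif bound by NF-Y, was also present within 100 bp of this summit. CCAAT was found at 3 of the 5 member peaks, HSPH1 and both DNAJB1 peaks, against 35.6% of HSF1 peaks at coding starts.

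DNAJB1 had 2 peaks and neither held an element within 100 bp of the summit. The peak nearest the MANE start, chr19:14518495-14518779, was the lowest member peak with 10 tags (4.80 to 18.4) and a fold enrichment of 5.24, above 9.91% of the list. Its summit was at -227 bp, while the 2 promoter elements, each with 1 mismatch, ran from -77 to -65 bp and from -52 to -40 bp and so lay outside the peak, which ended at -98 bp. With a window of 200 bp around the summit DNAJB1 joined HSPA8 and HSPH1, so 3 members were counted against 5.13% of the peaks at coding starts. The other DNAJB1 peak, chr19:14529193-14529780, was higher, with 18 tags (10.7 to 28.4) and a fold enrichment of 8.88. It covered 14 alternative DNAJB1 starts at -10933 bp from the MANE start, and TECR and MIR639 start within 1 kb of its summit.

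The HSP90AA1 peak did not lie at the MANE promoter. It spanned chr14:102139587-102139938, with 11 tags (5.49 to 19.7) and a fold enrichment of 6.74, above 47.4% of the list. Its summit lay at -52718 bp from the MANE start and -63 bp from the outermost GENCODE start of HSP90AA1. A RefSeq start lies farther out, with the summit at -13 bp from it. WDR20 starts on the opposite strand within 1 kb of this summit, so the peak cannot be given to either gene. The peak held no element, whereas the MANE promoter, which had no HSF1 peak, held 4 overlapping elements between -88 and -61 bp, 1 of them exact.

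All members except HSP90AB1 had a heat shock element within 500 bp of the MANE start, with or without an HSF1 peak. This held for 8 of 9 members, against 16.6% of 19061 coding genes with a MANE start. For elements without a mismatch it held for 3 members, HSPA8, HSP90AA1 and HSPH1, against 1.32%. HSPA1A and HSPA1B each had 1 element, HSPB1 had 1 from -182 to -170 bp, and BAG3 had 1 downstream of the start, from 112 to 124 bp, all with 1 mismatch. In the RefSeq promoter windows of GRCh38.p14, which run from 250 bases before to 50 after a start, 8 of the 14 member windows held an element against 6.24% of 35116 windows, and 3 held an exact one against 0.490%. CCAAT was in 7 of the 14 windows, against 34.6% of all windows. HSP90AB1 had 6 matches, 2 of them exact, before a RefSeq start that lies 842 bp downstream of its MANE start. These were 1 separate match from -217 to -205 bp of that start and clusters of overlapping matches from -170 to -153 bp and from -117 to -95 bp. A match of letters is a description of the window and does not show binding.

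**Figure D1:**
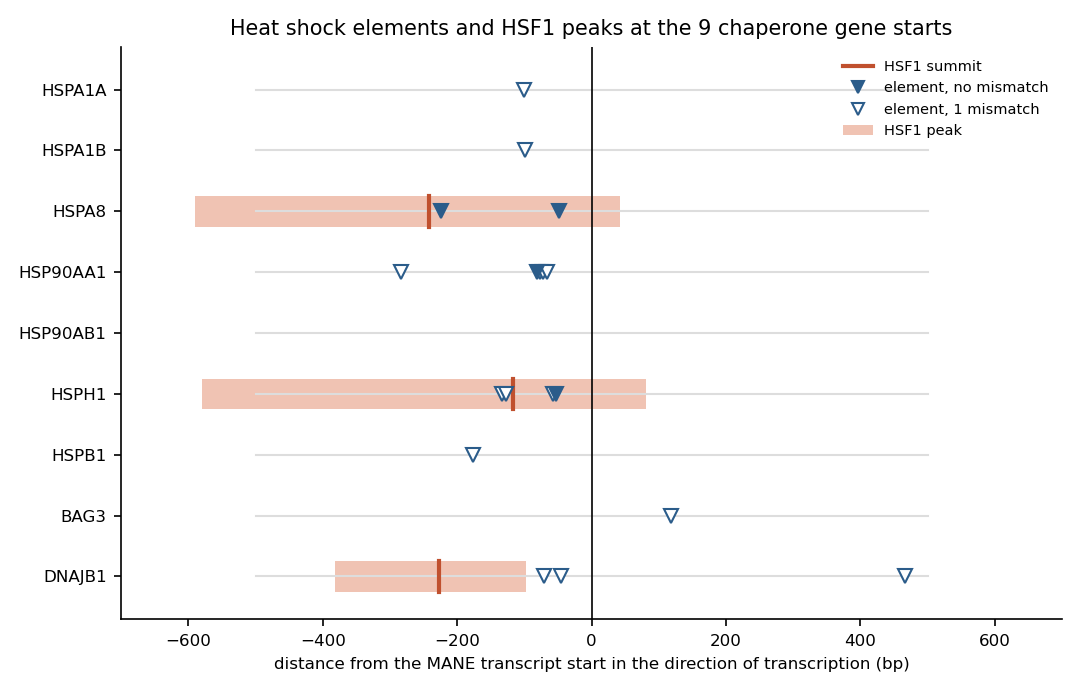
Heat shock elements and HSF1 CUT&Tag peaks at the 9 chaperone genes, by distance in bp from the MANE transcript start. Filled triangles are elements with no mismatch, open triangles elements with 1, searched along the grey line of 500 bp on both sides, and shaded bars are HSF1 peaks with the summit as a vertical line. HSPA8 and HSPH1 have elements inside the peak, the DNAJB1 elements lie outside it, and the HSP90AA1 peak and the other DNAJB1 peak lie beyond the axis.

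The promoters with an element and no HSF1 peak at that start are shown next for comparison, together with the MANE promoter of DNAJB1, again with elements in capitals and without annotated untranslated regions. The stretches are HSPA1A chr6:31815343-31815542 on the plus strand, HSPA1B chr6:31827538-31827737 on the plus strand, HSP90AA1 chr14:102087045-102087244 on the minus strand, HSP90AB1 chr6:44247743-44247865 on the plus strand with 5 of its 6 matches, HSPB1 chr7:76302473-76302672 on the plus strand and DNAJB1 chr19:14518408-14518597 on the minus strand, all on hg38.
HSPA1A promoter: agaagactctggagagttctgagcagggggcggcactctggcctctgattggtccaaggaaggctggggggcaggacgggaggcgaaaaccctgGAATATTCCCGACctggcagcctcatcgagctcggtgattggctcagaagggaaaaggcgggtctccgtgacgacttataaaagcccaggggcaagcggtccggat
HSPA1B promoter: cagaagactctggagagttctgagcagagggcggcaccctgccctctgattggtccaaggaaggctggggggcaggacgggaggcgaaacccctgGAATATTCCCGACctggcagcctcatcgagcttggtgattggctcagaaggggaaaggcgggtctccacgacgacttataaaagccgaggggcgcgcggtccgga
HSP90AA1 MANE promoter: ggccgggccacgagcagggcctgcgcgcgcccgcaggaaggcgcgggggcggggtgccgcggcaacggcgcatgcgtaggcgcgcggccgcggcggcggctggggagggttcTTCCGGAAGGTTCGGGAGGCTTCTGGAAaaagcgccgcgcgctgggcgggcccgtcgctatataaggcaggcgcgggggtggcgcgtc
HSP90AB1 downstream start: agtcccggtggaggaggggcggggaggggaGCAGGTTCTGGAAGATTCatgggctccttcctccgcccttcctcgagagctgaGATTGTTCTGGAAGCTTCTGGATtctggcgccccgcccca
HSPB1 promoter: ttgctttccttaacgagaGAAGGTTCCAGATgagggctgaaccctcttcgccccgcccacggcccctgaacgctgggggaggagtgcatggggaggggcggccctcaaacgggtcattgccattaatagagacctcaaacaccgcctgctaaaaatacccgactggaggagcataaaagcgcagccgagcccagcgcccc
DNAJB1 MANE promoter: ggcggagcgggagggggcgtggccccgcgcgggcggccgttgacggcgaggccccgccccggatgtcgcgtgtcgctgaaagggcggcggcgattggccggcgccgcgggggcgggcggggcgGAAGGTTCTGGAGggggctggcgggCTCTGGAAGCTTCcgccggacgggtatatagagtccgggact

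HSPA1A and HSPA1B cannot be read as separate genes in these lists. Their promoters were identical at 277 of 300 aligned positions, 92.3%, and 1766 of the 2355 words of 50 bases in the HSPA1A gene also occur in HSPA1B. All 11 test words of each promoter also occur on 4 alternative contigs of the hg38 genome used here, which was not the case for any promoter word of the other 7 members. No HSF1 peak lay within 2 kb of those copies, although 23 HSF1 peaks were called on alternative haplotypes of chromosome 6. The nearest HSF1 summit was 362 kb from HSPA1A and 350 kb from HSPA1B. Whether reads that match several contigs were dropped is not stated for these files, and the part of this in the missing HSPA1A and HSPA1B peaks was not tested. For HSP90AB1, HSPB1 and BAG3 the nearest HSF1 summits were 187, 55.8 and 54.3 kb away.

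The wider chaperone network was described with 29 other genes of the pathway. An HSF1 peak lay at 15 of the 29, and 14 had none, against 25.4% of protein-coding genes with a peak. The 29 were chosen with earlier results of these data known, so this contrast is a description only. STIP1, which joins HSP70 to HSP90, had a fold enrichment of 13.2 and 40 tags, above 99.1% of the list and higher than any member. The mitochondrial chaperonin genes HSPD1 and HSPE1 share 1 peak with a fold enrichment of 12.3 and 52 tags. HSPA2 and HSPA14, relatives of HSPA8, stood at 10.4 and 9.24. None of these 5 genes had an element at the summit. Of all HSF1 peaks at coding starts, 2.15% held one. The 2 pathway genes with one were ST13, an HSP70-interacting co-chaperone, with a fold enrichment of 7.81 and an exact element, and PTGES3, the HSP90 co-chaperone p23, with a fold enrichment of 6.67 and 1 mismatch. These sites are shown as 30-base stretches on the minus strand, at chr22:40856748-40856777 for ST13 and chr12:56688404-56688433 for PTGES3.
ST13 site: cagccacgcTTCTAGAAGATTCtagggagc
PTGES3 site: cggcgccagGAAGGATCGCGAAggagctgg

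**Figure D2:**
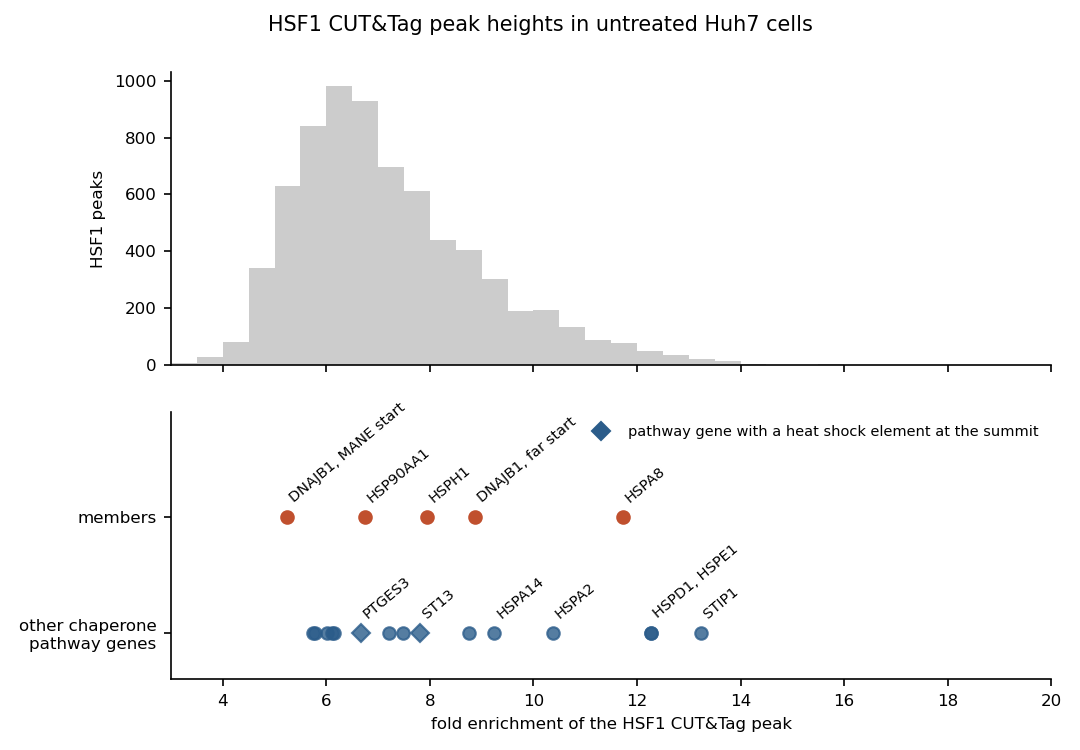
Fold enrichment of HSF1 CUT&Tag peaks. The top panel counts all peaks of the library, and the lower panel shows the 5 peaks at members and, for each of the 15 pathway genes with a peak, its highest peak, with diamonds for the 2 pathway genes with a heat shock element at the summit. The members range from 5.24 to 11.7, STIP1 reaches 13.2, and the axis ends at 20.

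H3K27ac CUT&Tag in untreated cells had no peak within 1 kb of a start of any of the 9 members, against 3.31% of coding genes with one. This library kept 896393 of 15737890 tags after duplicate removal and gave 1299 peaks, and the nearest summit to a member was 55.8 kb from HSPB1. HSPD1 and HSPE1 were the pathway genes with an H3K27ac CUT&Tag peak. Absence of a peak here says only that none was called from the tags kept. The ChIP-seq lists did hold H3K27ac peaks at HSPA8 and other members.

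The ChIP-seq libraries differed in ways that touch every value at the loci. After duplicate removal siNC kept 9795121 tags and siHSF1 10793650, but tags were extended to 297 bp in siNC and 175 bp in siHSF1, and a pileup grows with both. The lists held 41082 and 45586 peaks of median length 575 and 334 bp. Over 19826 regions with a peak in both lists the median log2 ratio of siHSF1 over siNC was -0.0051 for fold enrichment. For the pileup per tag kept it was -0.56. Taken over the whole lists, the siHSF1 peaks covered 0.577 times as much sequence as the siNC peaks. Loss of HSF1 RNA was not checked here, and the hg19 lists were not compared with marker genes, since no hg19 annotation was used. In the hg38 lists 5 of 15 hepatocyte markers and 2 of 8 markers of other cells had an HSF1 peak, against 25.4% of protein-coding genes. None of the markers had an H3K27ac CUT&Tag peak, against 3.31% of protein-coding genes with one.

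The direction of the H3K27ac differences at the chaperone loci depended on the scale, and on fold enrichment the shared regions were split. Of 9 regions with a peak in both lists, 4 had a lower fold enrichment after siHSF1 and 5 a higher one, with a median log2 ratio of 0.0078. Over all shared regions 50.4% were lower, so the split at the loci is near that of the whole list. The smallest ratios among the higher regions were 0.0078 and 0.014. All 5 higher regions lay in the HSPA1A-HSPA1B locus, which held 6 of the 9. The highest peak of a locus was lower in siHSF1 at all 4 loci with a peak in both lists, with log2 ratios of -1.08 at HSPA8, -0.58 at HSPA1A-HSPA1B, -0.54 at HSP90AB1 and -0.14 at BAG3. At HSPA8 the highest peaks of the 2 lists overlapped, while at the other 3 loci they lay at different places, so those ratios are not changes at 1 place. HSPB1 had no siHSF1 peak. Lower by at least 1.5-fold were 2 of the 9, at HSPA8 and beyond the end of HSPA1B, against 10.3% of all shared regions, and higher by as much were 0 of 9, against 11.0%. The pileup per tag was lower in 9 of 9, with a median log2 ratio of -0.42, and 90.6% of all shared regions were lower on that scale. Per tag and base of fragment length the pileup was higher in 9 of 9, with log2 ratios from 0.0064 to 0.62, and 29.6% of all shared regions were lower. Peaks at the loci covered 18529 bp in siNC and 9377 bp in siHSF1, 0.506 times as much.

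HSPA8 had the largest difference in fold enrichment among the 9 shared regions. The HSPA8 gene span on hg19 is chr11:122928200-122932844. In siNC its upstream peak, chr11:122933395-122934658, had 23 tags, a fold enrichment of 11.6 and a length of 1264 bp. The summit of this peak lay at -810 bp from the start of the span. In siHSF1 the peak had 15 tags, a fold enrichment of 5.48, a length of 1098 bp and a summit at -766 bp. The log2 ratio was -1.08, and 1.09% of shared regions had a lower one. Its 95% interval from -2.12 to -0.075 carries the counting error of the summit tags and takes the local background as exact, as do the intervals of the other fold enrichment ratios. The background has a counting error of its own, so these intervals are too narrow. One that leaves out 0 does not place a ratio beyond counting error. The log2 ratio of the tags alone, 15 against 23, was -0.62 with an exact interval from -1.66 to 0.38, which includes 0. The local background at this place was 1.08 in siNC and 1.92 in siHSF1. The siNC value is the lowest background of its list, where 40.3% of siNC peaks lie. The log2 ratio of background plus 1 was 0.49, above 98.8% of shared regions, most of which had a lower background in siHSF1. The log2 ratio of the pileup per tag was -0.76, between the lower quartile of all shared regions, -0.82, and their median, -0.56, and per tag and base of fragment length the ratio was 0.0064, so the direction of the HSPA8 difference depends on the scale. A smaller siNC peak over the start of the HSPA8 span, with 8 tags, a fold enrichment of 4.33 and a summit 553 bp inside the gene, had no siHSF1 counterpart and lay 242 bp from the siHSF1 upstream peak. HSPA8 was the only one of the 6 members with a locus that also had an HSF1 CUT&Tag peak, at -242 bp from its hg38 start, and the 2 builds were not overlaid.

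The HSPA1A-HSPA1B locus, chr6:31783291-31798031 on hg19, was the richest in peaks, with 11 in siNC and 13 in siHSF1. Its outermost shared region upstream, with summits at -8715 and -8728 bp, had fold enrichments of 7.08 and 7.15, and LSM2, a gene of RNA processing on the opposite strand, starts at -8577 bp from HSPA1A in hg38. Just before HSPA1A the siNC peak had 17 tags, a fold enrichment of 8.66 and its summit at -560 bp, and the siHSF1 peak had 14 tags, a fold enrichment of 8.71 and its summit at -529 bp. The log2 ratio of this region was 0.0078 (-1.12 to 1.12), while its peaks covered 1726 bp in siNC and 807 bp in siHSF1. HSPA1L starts on the opposite strand at -260 bp from HSPA1A in hg38, so the acetylation before HSPA1A cannot be given to either gene. Inside HSPA1A both libraries had 8 tags, with fold enrichments of 4.33 and 5.30. Since HSPA1A and HSPA1B share much of their sequence, these tags cannot be given to HSPA1A alone.

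The region that was lower at this locus lay past HSPA1B. It had 27 tags and a fold enrichment of 13.0 in siNC, the highest value at any of the 5 loci, and 19 tags and 6.85 in siHSF1. The summits were 4910 and 4784 bp past the end of the span, and SNHG32, a small nucleolar RNA host gene, starts 4354 bp past HSPA1B in hg38. The log2 ratio was -0.93 (-1.86 to -0.028, too narrow because the background is taken as exact), with 2.32% of shared regions lower. The log2 ratio of the tags alone was -0.51, and its interval from -1.44 to 0.39 includes 0. The local background was 1.15 in siNC and 1.92 in siHSF1, a change above 97.5% of shared regions. The pileup per tag changed by -0.65, with 40.3% of shared regions lower, and per tag and base of fragment length by 0.12. The part of the background in the HSPA8 and SNHG32-side differences was not tested. The regions between the genes, with summits at 6787 and 6890 bp, and next to the SNHG32 side, at 21002 and 20954 bp, had log2 ratios of 0.55 and 0.58 with equal tags of 16 and 16 and of 11 and 11. At both of these the local background was lower in siHSF1, 1.01 against 1.93 and 0.959 against 1.93. HSPA1B starts 12195 bp after HSPA1A in hg38. No peak of either hg19 list covered that distance, and the nearest was a siHSF1 peak of 11 tags and a fold enrichment of 3.09 with its summit at 11674 bp. The part of the sequence shared with HSPA1A in this missing peak was not tested.

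HSP90AB1 had an H3K27ac peak over its start in the siNC list and none there in the siHSF1 list. The siNC peak, chr6:44214353-44216125, ran over the start of the span with 15 tags (8.40 to 24.7), a fold enrichment of 7.70 and a length of 1773 bp. The nearest siHSF1 peak was 8795 bp away. Of the 6771 siNC peaks at least as high, 285 had no siHSF1 counterpart, 4.21%. Of the 4029 that were also as long, 23 had none, 0.571%. Both sets include much higher peaks, and among siNC peaks with a fold enrichment from 7 to 8, 14.8% had none. In siHSF1 there were 3 short peaks 3550, 4214 and 5955 bp past the end of the gene, with 7, 8 and 6 tags and fold enrichments of 4.71, 5.30 and 4.12, where siNC had none. SLC35B2 starts 4002 bp past HSP90AB1 in hg38. The values below the calling threshold are not in the lists, so the size of the difference at the HSP90AB1 start is not known, and the lowest pileup in the siHSF1 list was 5 tags.

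BAG3, too, had H3K27ac peaks near its start in siNC and none there in siHSF1. The siNC list held 2, at 256 bp with 11 tags and a fold enrichment of 5.78 and at 850 bp with 6 tags and 3.37, and the nearest siHSF1 peak lay 6277 and 5711 bp from them. Of siNC peaks at least as high as the higher one, 19.7% had no counterpart. Among siNC peaks near its own height, with a fold enrichment from 5 to 6, 50.5% had none. Among those under 4, where the lower one falls, 72.2% had none. Within the gene, chr10:121410882-121437329, the shared regions at 7279 and 16942 bp had fold enrichments of 6.16 against 6.12 and 4.33 against 4.12, with log2 ratios of -0.0084 and -0.073. The highest siNC peak of the locus, 6.74 at 14488 bp, had no overlapping siHSF1 peak, but a siHSF1 peak with a fold enrichment of 5.30 lay 76 bp from it.

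HSPB1 had no H3K27ac peak over its start or body in either library. The siNC list held 1 peak 2148 bp past the end of the gene span, chr7:75931875-75933614, with 10 tags and a fold enrichment of 5.12, and siHSF1 held none within 10 kb. Among all siNC peaks with a fold enrichment from 5 to 6, 50.5% had no siHSF1 counterpart.

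Across the 5 loci 13 of 22 siNC peaks, 59.1%, had no overlapping siHSF1 peak, against 48.3% of all siNC peaks. In the other direction 10 of 21 siHSF1 peaks, 47.6%, had no siNC peak, against 25.4% of all siHSF1 peaks. Over the whole list the share without a counterpart was lower in higher peaks, from 72.2% of siNC peaks with a fold enrichment under 4 to 0.0600% of those at 12 or more. The HSP90AB1 start peak fell in the class from 7 to 8, where 14.8% had none, and the other 12 unmatched peaks were all under 7.

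**Figure D3:**
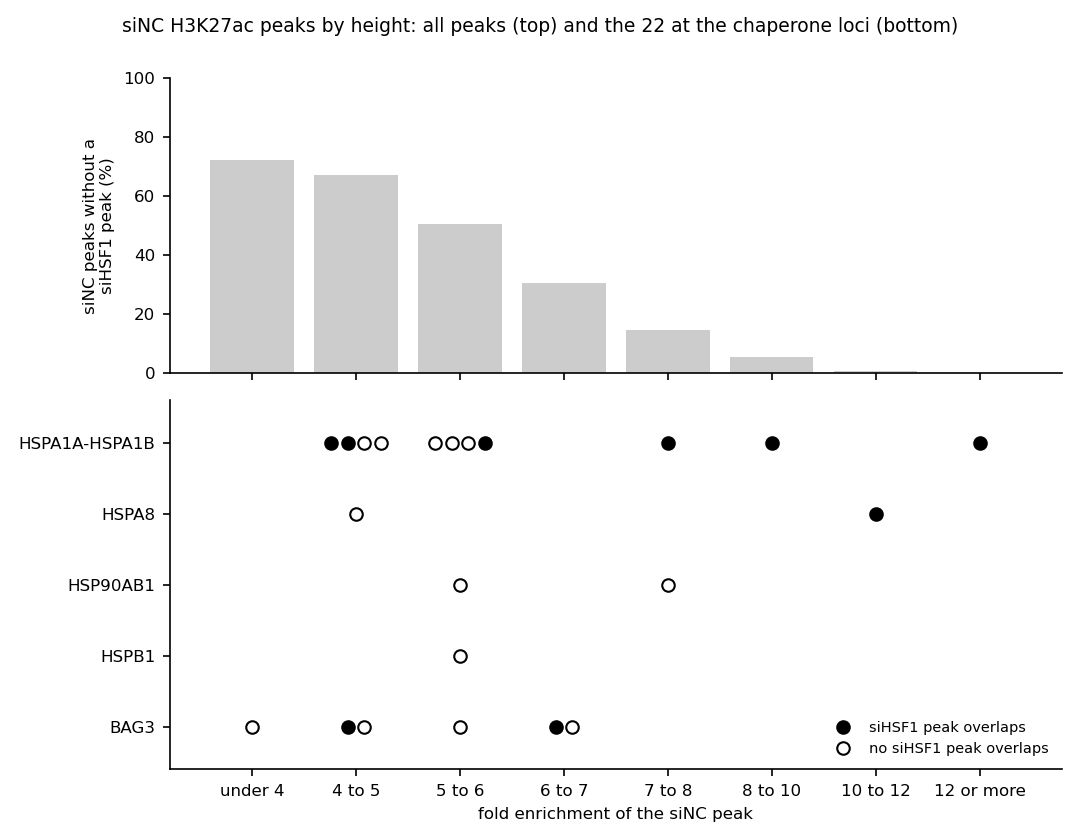
Top, share of all siNC H3K27ac peaks without an overlapping siHSF1 peak, in percent, by fold enrichment of the siNC peak. Bottom, the 22 siNC peaks at the chaperone loci in the same classes, filled where a siHSF1 peak overlaps and open where none does. The open HSP90AB1 circle in the class from 7 to 8 is the peak over the gene start.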

How the data were processed

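Each of the 4 peak lists was made by the authors with MACS2 from 1 Huh7 library. The other libraries of the series were not analysed here. In the deposited lists pileup is an unscaled signal (extended tags at the summit) and fold enrichment a ratio, from which the local background was recovered. The deposited -log10 q-value served only as a filter, since the CUT&Tag headers say that none was calculated, and the -log10 p-value was not used. ChIP-seq was called by the authors against input (MACS 2.1.1.20160309, q-value cutoff 0.05), CUT&Tag with no control (MACS 2.1.4, p-value cutoff 1e-05). BWA and hg19 stand in the ChIP-seq headers, but Bowtie2 and hg38 in the methods. Since 228 siNC and 234 siHSF1 peaks run past the ends of hg38 chromosomes, these lists were read as hg19, and no position was converted.

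Only peaks of chromosomes 1 to 22, X and Y entered, and a shared region needed 1 common bp. A region takes the value of its peak with the highest fold enrichment. Gene starts came from GENCODE release 44 and promoter windows from RefSeq. Intervals are exact at 95%, cover counting error only, and treat the summit as fixed although it is the highest point of a peak. Members, the 29 pathway genes and markers were chosen with earlier results of these data known. Pathway genes were named when they had an element at the summit or were among the 5 with the highest fold enrichment, and genes starting near member peaks were named after their positions were seen. The search around MANE starts and the comparison of siNC peaks by height were added after the lists were examined. Other windows, thresholds, scales and element definitions were tried as alternatives. The calculations were tested on simulated data. Software was scipy 1.17.1, pandas 2.3.3, numpy 2.4.6, Biopython 1.88, pysam 0.24.0 and matplotlib 3.10.9 under Python 3.11.15.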

Additional observations from a re-analysis of the deposited data

How the results depend on the processing

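Of 56 alternatives over 10 results, 51 gave a value within the counting interval or, for a count or share, within 1.5 times the value reported. For the loci this is a loose criterion. The interval ran from -1.44 to 1.14 at BAG3, for example, so a ratio could change sign and still count as within it. The HSPA8 log2 ratio of -1.08 became 0.0064 per tag and base of fragment length, and was between -1.45 and -0.60 under its other alternatives. At HSPA1A-HSPA1B and BAG3 the ratios of the highest peaks, -0.58 and -0.14, became 0.12 and 0.28 with that scale, which also chose other peaks as highest. The BAG3 ratio was also above 0, at 0.23, for the pileup over the local background without the added 1. At HSP90AB1 the ratio of the highest peaks, -0.54, sets the siNC peak at the start beside a siHSF1 peak past the gene end and is no change at 1 place. The share of shared regions that were lower, 10.3%, became 1.60% at 2-fold and 46.5% for the pileup per tag, and the share that were higher, 11.0%, became 2.38% and 0.444%. In the HSPA1A-HSPA1B locus the ratio of the highest peaks was -0.58 with 10 kb added and 0.0078 with 2 kb, a window that leaves out the region past HSPA1B. With outermost gene starts 3 members had an HSF1 peak in place of 4. No ratio could be given for HSPB1, which had no siHSF1 peak, nor for HSP90AB1 with 2 kb added or with a -log10 q-value of at least 5. No paired analysis was possible because each condition is 1 library and no result comes from a test. With 1 library a side, intervals cover counting error only, a pileup of 6 to 27 tags leaves them wide, and places under the calling threshold have no value.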
